A study of Homo sapiens with 16 samples.

Results

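The collagen genes measured in this study of Ewing sarcoma cells are 32 of the 11963 genes that could be named on the array, taken as all genes whose probe sets carry exactly 1 symbol of the form COL, a number, A, a number. They are covered by 73 probe sets, and each gene is represented by its brightest probe set on average over the 16 arrays. Of the 32 genes, 20 reached log2 4 or more on 2 or more arrays and were tested, as were 7304 of the 11963 genes. The values are log2 expression, so a fold change is 2 raised to the difference.

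RNA came from A673, an established human Ewing sarcoma cell line that carries EWS-FLI1, a fusion of EWSR1 with FLI1 that acts as an aberrant transcription factor. All arrays are of 1 clone, Asp14, which holds an expression vector for a doxycycline-inducible short hairpin RNA that lowers EWS-FLI1, together with a vector listed as TR, and was grown with Zeocin and Blasticidin. The untreated control at 0 h has 4 arrays, cells given doxycycline at 1 ug/ml for 18 h or 36 h have 3 arrays each, and those given it for 53 h, 72 h or 96 h have 2 arrays each. Only 0 h is untreated, so loss of the fusion, the drug and longer culture cannot be told apart, and results from 1 clone may not hold for other cells.

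Collagens are proteins of 3 chains wound into a triple helix. Fibrillar collagens (types I, II, III, V and XI) form the cables of the matrix, type IV forms the sheet of basement membranes, type VI forms beaded filaments next to cells, and others decorate fibrils, anchor basement membranes or span the cell membrane. They are typical products of mesenchymal cells, and a molecule often needs chains from more than 1 gene.

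Of the collagen genes bright enough to test, nearly all were higher by 96 h of doxycycline, and they were first called higher at different times. At 96 h 19 of the 20 tested genes were higher than at 0 h and COL21A1 was lower, where 25.1% of all tested genes were higher and 35.7% lower (limma, adjusted p under 0.05). The median log2 change of the 20 genes was 2.86, beside -0.10 over all tested genes. At 18 h 7 genes were higher and 2 lower (all tested genes 14.8% and 14.7%), at 36 h 13 and 1 (33.2% and 32.1%), at 53 h 15 and 0 (31.8% and 34.5%), and at 72 h 17 and 0 (29.3% and 39.2%). The medians of the 20 genes at these times were 0.32, 1.13, 1.71 and 2.26 on the log2 scale, beside 0.02, 0.02, -0.01 and -0.11 over all tested genes. A gene had to be above the filter somewhere to be tested, and 4 of the 20 (COL7A1, COL8A1, COL9A3, COL15A1) were below log2 4 on all 4 arrays at 0 h, so that a rise was the only change they could show. Of the other 16 genes, 15 were higher and 1 lower at 96 h. The counts are those of genes that passed the filter, not of all 32. Without array 1 at 0 h, 18 h and 36 h, left out after the data were seen, the collagen genes called at 18 h to 96 h were 13, 15, 15, 17 and 20. With arrays 2 and 3 averaged they were 6, 12, 15, 17 and 20. Over all tested genes the counts were 2150, 4772, 4845, 5003 and 4440 in the main fit. They were 2053, 4850, 5103, 5269 and 4718 without array 1, and 1269, 4051, 4476, 4651 and 3984 with the averaging. Without probe sets whose names end in _x_at or _s_at, which can bind several transcripts, 14 collagen genes were tested and 4, 8, 10, 11 and 13 were called. Of all 4431 genes tested in that setting, 1320, 2855, 2933, 3020 and 2694 were called.

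**Figure D1:**
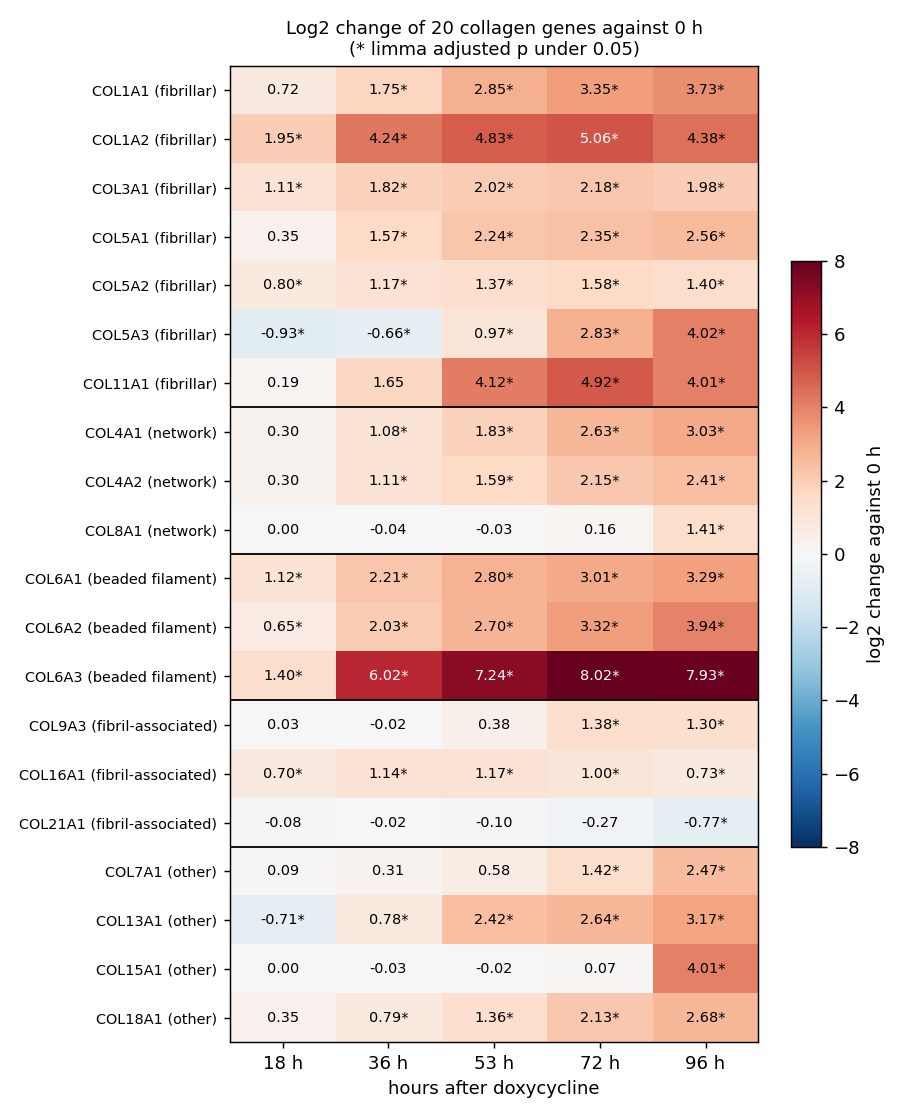
Log2 change of the 20 tested collagen genes against 0 h (rows, grouped by type of collagen; columns, hours after doxycycline; colour and printed number, log2 change; a star marks a limma adjusted p under 0.05). At 96 h 19 of 20 genes are positive, COL21A1 is at -0.77, and COL6A3 has the highest value of the map, 8.02 at 72 h.

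Some facts of the arrays bear on these values. FLI1, the target of the hairpin, read 6.52 to 7.17 at 18 h, against 9.99 to 10.17 at 0 h, a difference of -3.20 ± 0.14 (SE), and its differences from 0 h at the later times were -3.08 to -3.67. Separate cultures are not stated for the numbered replicates, so the p-values reflect spread among arrays only, which may be technical. Arrays 2 and 3 at 0 h, 18 h and 36 h were nearly alike (SD of the difference over genes 0.16 to 0.19, beside 0.23 to 0.53 for other pairs of arrays of 1 time), array 1 stood apart, and array 4 at 0 h differed from arrays 2 and 3 by 0.37. Without array 4 at 0 h the collagen genes called at 18 h to 96 h were 9, 12, 15, 18 and 20. Of all 7289 genes tested then, 1855, 4672, 4753, 4939 and 4371 were called. The ACTB 3' less 5' signal, a sign of RNA quality, was highest at 36 h (2.09 to 2.45) and 1.47 to 2.06 at 0 h, and its part in the results was not tested. Markers of blood cells (4 of 4) and epithelial cells (5 of 5) were below log2 4 on every array. So were 4 of 5 endothelial markers (PECAM1, CDH5, VWF, TEK). The fifth, KDR, a receptor for VEGF, did not reach log2 4 at 0 h and was called higher from 36 h on. KDR passed the filter by arrays after doxycycline alone, so a rise was the only change from 0 h it could show. Its calls are no support beyond the values. The summed level of the endothelial list, in which KDR alone reached log2 4, was 8.58 to 8.72 at 53 h, against 5.02 to 5.18 at 0 h. At 96 h the sum was 5.56 to 6.32. Of 4 tested Ewing sarcoma genes 3 were lower from 18 h and all 4 at 96 h. In bulk RNA, more cells of a kind and more RNA per cell cannot be told apart.

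Type VI collagen, the beaded-filament collagen, is built from chains encoded by COL6A1, COL6A2 and COL6A3, and all 3 rose from 18 h on. Of all 20 genes, COL6A3 had the highest changes at 36 h, 53 h, 72 h and 96 h. COL6A3 read 4.68, 3.96, 3.52 and 6.15 at 0 h, 6.75, 5.64 and 5.55 at 18 h and 10.51, 10.79 and 10.49 at 36 h. It then read 11.81 and 11.83 at 53 h, 12.58 and 12.60 at 72 h and 12.79 and 12.22 at 96 h. Arrays 2 and 3 at 0 h were below log2 4, the arrays at 18 h overlapped those at 0 h, and all arrays from 36 h on lay above them. Against 0 h, COL6A3 differed on the log2 scale by 1.40 ± 0.48 (SE) at 18 h and 6.02 ± 0.48 at 36 h, then by 7.24 ± 0.54 at 53 h and 8.02 ± 0.54 at 72 h, and in the end by 7.93 ± 0.54 at 96 h. COL6A3 passed the test at all 5 times (limma adjusted p between 1.9e-08 and 0.04). This was 259-fold at 72 h, and with values below log2 4 set to 4 the log2 change at 72 h was 7.89. The call at 18 h was lost without array 1, 2 or 3 at 0 h (adjusted p = 0.056, 0.10 and 0.11), without array 1 or 2 at 18 h (0.19 and 0.054) and without any 1 of arrays 2 and 3 at 36 h or those at 53 h and 72 h (0.050 to 0.053). It was lost as well with no filter (0.080), with arrays centred on their medians (0.053), with arrays 2 and 3 averaged (0.13) and without array 1 at 0 h, 18 h and 36 h (0.18). The call at 18 h was kept by limma with a replicate block (1.93, adjusted p = 0.00054). Within arrays 1, 2 and 3 the differences of 18 h from 0 h were 2.07, 1.68 and 2.03.

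COL6A1 read 8.86, 9.11, 8.71 and 8.13 at 0 h, 9.81, 9.87 and 9.77 at 18 h and 10.90, 10.89 and 10.93 at 36 h. It then read 11.41 and 11.59 at 53 h, 11.72 and 11.69 at 72 h and 12.13 and 11.85 at 96 h. All arrays after doxycycline lay above all 4 at 0 h. Against 0 h, COL6A1 differed on the log2 scale by 1.12 ± 0.17 (SE) at 18 h and 2.21 ± 0.17 at 36 h, then by 2.80 ± 0.19 at 53 h and 3.01 ± 0.19 at 72 h, and in the end by 3.29 ± 0.19 at 96 h. COL6A1 passed the test at all 5 times (limma adjusted p between 9.8e-09 and 0.00038). The 4 other tested probe sets of COL6A1 differed by 4.18, 2.48, 0.65 and 1.54 at 96 h, so the size depends on the probe set. With only probe sets not ending in _x_at or _s_at, it was not called at 18 h, 36 h and 53 h (0.01, 0.09 and 0.27). COL6A2 read 7.53, 7.84, 7.56 and 7.60 at 0 h, 8.21, 8.31 and 8.34 at 18 h and 9.39, 9.78 and 9.82 at 36 h. It then read 10.32 and 10.33 at 53 h, 10.96 and 10.95 at 72 h and 11.67 and 11.47 at 96 h. No array of any time overlapped those at 0 h. Against 0 h, COL6A2 differed on the log2 scale by 0.65 ± 0.11 (SE) at 18 h and 2.03 ± 0.11 at 36 h, then by 2.70 ± 0.12 at 53 h and 3.32 ± 0.12 at 72 h, and in the end by 3.94 ± 0.12 at 96 h. COL6A2 passed the test at all 5 times (limma adjusted p between 2.9e-11 and 0.00076). It was also called in every step between neighbouring times from 36 h against 18 h (1.38 ± 0.12) to 96 h against 72 h (0.62 ± 0.14, adjusted p = 0.0059). Of these step calls, that of 53 h against 36 h was lost without array 2 at 53 h (0.050), that of 72 h against 53 h without array 1 at 53 h or either array at 72 h (0.064, 0.061 and 0.054), and that of 96 h against 72 h without array 1 at 96 h (0.061). Its change at 18 h was 0.17 and not called with its other probe set, with which these 3 last steps were not called either (0.096, 0.13 and 0.21).

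The promoter of COL6A3 is shown because this gene had the largest changes. It is a window of 300 bases, 250 before and 50 from the RefSeq start on, read 5′ to 3′ along the gene (GRCh38.p14, chr2:237414115-237414414, minus strand), and capitals mark GGAA or, on the other strand, TTCC, the core that ETS factors such as FLI1 bind. 
COL6A3: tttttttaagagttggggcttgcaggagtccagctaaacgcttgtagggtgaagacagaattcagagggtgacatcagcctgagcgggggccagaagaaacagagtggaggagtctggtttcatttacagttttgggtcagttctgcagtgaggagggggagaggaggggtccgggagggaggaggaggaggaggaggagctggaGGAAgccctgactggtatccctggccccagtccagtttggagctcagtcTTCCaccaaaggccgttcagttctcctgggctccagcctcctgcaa
RefSeq windows were at hand for 23 of the 32 genes. GGAA in either orientation lay in 95.5% of 35116 windows of all genes, and was found 2 times in that of COL6A3. The repeat GGAAGGAA, in 3.67% of all windows, was in none of the 34 windows of these 23 genes. No window was used for COL1A1, COL1A2, COL2A1, COL3A1, COL5A2, COL6A1, COL8A1, COL9A3 and COL14A1. A match of letters is a description and not a binding site.

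Type I collagen, the main fibrillar collagen of bone, skin and tendon, is a trimer of COL1A1 and COL1A2 chains. COL1A2 read 7.66, 7.995, 7.84 and 8.11 at 0 h, 9.50, 9.96 and 10.10 at 18 h and 12.12, 12.08 and 12.20 at 36 h. It then read 12.72 and 12.74 at 53 h, 13.07 and 12.86 at 72 h and 12.18 and 12.38 at 96 h. The 3 arrays at 18 h lay above all 4 at 0 h, and the level rose further. Against 0 h, COL1A2 differed on the log2 scale by 1.95 ± 0.13 (SE) at 18 h and 4.24 ± 0.13 at 36 h, then by 4.83 ± 0.15 at 53 h and 5.06 ± 0.15 at 72 h, and in the end by 4.38 ± 0.15 at 96 h. COL1A2 passed the test at all 5 times (limma adjusted p between 1.7e-11 and 9.9e-07). This was 33.4-fold at 72 h and 20.8-fold at 96 h, and 96 h was lower than 72 h by 0.68 ± 0.17 (log2 change -0.68, adjusted p = 0.011). That last call was lost without array 1 at 72 h (0.095), without array 1 at 96 h (0.087) and with probe sets averaged (0.056). COL1A1 read 9.42, 10.07, 9.84 and 9.43 at 0 h, 9.65, 10.77 and 10.81 at 18 h and 10.91, 11.72 and 11.68 at 36 h. It then read 12.26 and 12.82 at 53 h, 13.01 and 13.07 at 72 h and 13.46 and 13.37 at 96 h. At 18 h array 1 overlapped the arrays at 0 h and the other arrays did not, and from 36 h on none did. Against 0 h, COL1A1 differed on the log2 scale by 0.72 ± 0.28 (SE) at 18 h and 1.75 ± 0.28 at 36 h, then by 2.85 ± 0.32 at 53 h and 3.35 ± 0.32 at 72 h, and in the end by 3.73 ± 0.32 at 96 h. COL1A1 passed the test at 36 h, 53 h, 72 h and 96 h (limma adjusted p between 4.9e-07 and 9.7e-05) and not at 18 h (0.069). Under a replicate block the change at 18 h was 0.63 and passed (adjusted p = 0.041), as it did without array 1 at 18 h (1.10, 0.0066) or array 1 at 36 h (0.043). It passed too without array 1 at 0 h, 18 h and 36 h (1.01, 0.0014) and with array weights (0.00026). With array weights 3546 of all tested genes were called at 18 h, beside 2150 without.

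Type III collagen, a trimer of COL3A1 chains, accompanies type I in extensible tissue. COL3A1 read 12.44, 13.13, 13.10 and 13.01 at 0 h, 13.84, 14.13 and 14.13 at 18 h and 14.76, 14.71 and 14.76 at 36 h. It then read 14.93 and 14.96 at 53 h, 15.05 and 15.14 at 72 h and 14.93 and 14.88 at 96 h. All arrays after doxycycline lay above all at 0 h. Of 22277 probe sets, 1 and 2 were brighter on the arrays at 72 h, against 275 to 458 at 0 h, and the brightest probe set of an array read 15.03 to 15.23. Against 0 h, COL3A1 differed on the log2 scale by 1.11 ± 0.13 (SE) at 18 h and 1.82 ± 0.13 at 36 h, then by 2.02 ± 0.15 at 53 h and 2.18 ± 0.15 at 72 h, and in the end by 1.98 ± 0.15 at 96 h. COL3A1 passed the test at all 5 times (limma adjusted p between 2.3e-08 and 7.5e-05). Its other bright probe sets gave 3.09 and 2.79 at 72 h, and its dim one 0.44; with only the last left, when probe sets ending in _x_at and _s_at are dropped, the gene was called at 53 h (1.11) and not at the other times.

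Type V collagen helps to start fibrils and is made of COL5A1, COL5A2 and COL5A3 chains, which followed different courses here. COL5A2 read 11.16, 11.36, 11.31 and 10.97 at 0 h, 11.97, 11.98 and 12.05 at 18 h and 12.25, 12.37 and 12.49 at 36 h. It then read 12.61 and 12.53 at 53 h, 12.78 and 12.79 at 72 h and 12.59 and 12.62 at 96 h. None of the 12 arrays after doxycycline overlapped those at 0 h. Against 0 h, COL5A2 differed on the log2 scale by 0.80 ± 0.08 (SE) at 18 h and 1.17 ± 0.08 at 36 h, then by 1.37 ± 0.09 at 53 h and 1.58 ± 0.09 at 72 h, and in the end by 1.40 ± 0.09 at 96 h. COL5A2 passed the test at all 5 times (limma adjusted p between 6.0e-09 and 2.9e-05). COL5A1 read 9.93, 9.95, 9.93 and 9.95 at 0 h, 10.12, 10.43 and 10.32 at 18 h and 11.17, 11.72 and 11.64 at 36 h. It then read 12.19 and 12.18 at 53 h, 12.46 and 12.13 at 72 h and 12.73 and 12.28 at 96 h. The 4 arrays at 0 h lay between 9.93 and 9.95, and every later array was above them. Against 0 h, COL5A1 differed on the log2 scale by 0.35 ± 0.14 (SE) at 18 h and 1.57 ± 0.14 at 36 h, then by 2.24 ± 0.15 at 53 h and 2.35 ± 0.15 at 72 h, and in the end by 2.56 ± 0.15 at 96 h. COL5A1 passed the test at 36 h, 53 h, 72 h and 96 h (limma adjusted p between 1.5e-08 and 3.6e-07) and not at 18 h (0.069). At 18 h it was called without array 1 at 36 h (0.024) or either array at 96 h (0.049 each). Array weights (0.00044) and leaving out array 1 at 0 h, 18 h and 36 h (0.020) also gave a call.

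COL5A3 read 5.65, 6.13, 5.93 and 6.71 at 0 h, 5.37, 5.18 and 4.97 at 18 h and 6.08, 5.07 and 5.18 at 36 h. It then read 7.07 and 7.07 at 53 h, 9.05 and 8.81 at 72 h and 10.25 and 10.01 at 96 h. All 3 arrays at 18 h lay below all 4 at 0 h, at 36 h array 1 overlapped them, and at 53 h, 72 h and 96 h all lay above. Against 0 h, COL5A3 differed on the log2 scale by -0.93 ± 0.25 (SE) at 18 h and -0.66 ± 0.25 at 36 h, then by 0.97 ± 0.29 at 53 h and 2.83 ± 0.29 at 72 h, and in the end by 4.02 ± 0.29 at 96 h. COL5A3 passed the test at all 5 times (limma adjusted p between 8.8e-08 and 0.035). COL5A3 was 16.3-fold higher at 96 h, and it was called higher in the steps of 53 h against 36 h (1.63 ± 0.30), 72 h against 53 h (1.86 ± 0.33) and 96 h against 72 h (1.20 ± 0.33). The call of 96 h against 72 h was lost without array 1 or 2 at 72 h (0.052 and 0.10) and without array 1 at 96 h (0.11). The lower call at 36 h was lost with a replicate block (-0.46, adjusted p = 0.089) and without array 2 or 4 at 0 h or array 2 or 3 at 36 h (adjusted p 0.062 to 0.16), and that at 18 h without array 3 (0.056). With arrays 2 and 3 averaged neither was called (0.075 at 18 h and 0.19 at 36 h). Its second probe set differed by -0.51 at 18 h, which was not called (adjusted p = 0.051), by -0.54 at 36 h (0.018) and by 4.32 at 96 h. 

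The promoter of COL5A3 is given for a gene called lower at 18 h and 36 h and higher later, again with GGAA or TTCC in capitals (GRCh38.p14, chr19:10010455-10010754, minus strand). 
COL5A3: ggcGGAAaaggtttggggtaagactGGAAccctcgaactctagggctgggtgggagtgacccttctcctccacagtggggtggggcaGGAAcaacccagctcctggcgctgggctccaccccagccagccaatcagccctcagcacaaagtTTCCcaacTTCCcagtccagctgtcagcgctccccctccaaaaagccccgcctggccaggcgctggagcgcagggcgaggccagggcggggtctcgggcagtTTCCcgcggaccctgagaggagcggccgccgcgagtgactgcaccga
It held 6 such cores, where the median over all windows was 3. So did 1 window each of COL18A1 and COL4A6, and that of COL4A5 held 9. The other collagen windows held 0 to 5. COL4A5 and COL4A6 did not reach log2 4 on any array.

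Type XI collagen, a minor fibrillar collagen of cartilage, is represented by COL11A1. COL11A1 read 3.41, 5.88, 6.28 and 5.76 at 0 h, 2.84, 6.74 and 6.99 at 18 h and 5.31, 7.57 and 8.07 at 36 h. It then read 9.53 and 9.38 at 53 h, 10.24 and 10.27 at 72 h and 9.12 and 9.57 at 96 h. Array 1 was far below its group at 0 h, 18 h and 36 h, and from 53 h all arrays were above all at 0 h. Against 0 h, COL11A1 differed on the log2 scale by 0.19 ± 0.95 (SE) at 18 h and 1.65 ± 0.95 at 36 h, then by 4.12 ± 1.07 at 53 h and 4.92 ± 1.07 at 72 h, and in the end by 4.01 ± 1.07 at 96 h. COL11A1 passed the test at 53 h, 72 h and 96 h (limma adjusted p between 0.001 and 0.0054) and not at 18 h and 36 h (0.14 to 0.92). At 36 h the change was 1.80 and passed with a replicate block (adjusted p = 0.034), it passed without array 1 at 18 h (0.044) or array 1 at 36 h (2.49, 0.041), and without array 1 at 0 h, 18 h and 36 h, an alternative chosen after seeing the data, it was 0.89 at 18 h and 1.85 at 36 h (adjusted p of 0.0052 and 4.0e-06). Within array 1 the difference of 36 h from 0 h was 1.90, beside 1.69 and 1.80 within arrays 2 and 3. The other probe set of COL11A1 differed by 1.30 ± 0.51 at 36 h and was called (limma adjusted p = 0.040). That probe set was below log2 4 on every array at 0 h, so a rise was the only change it could show.

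**Figure D2:**
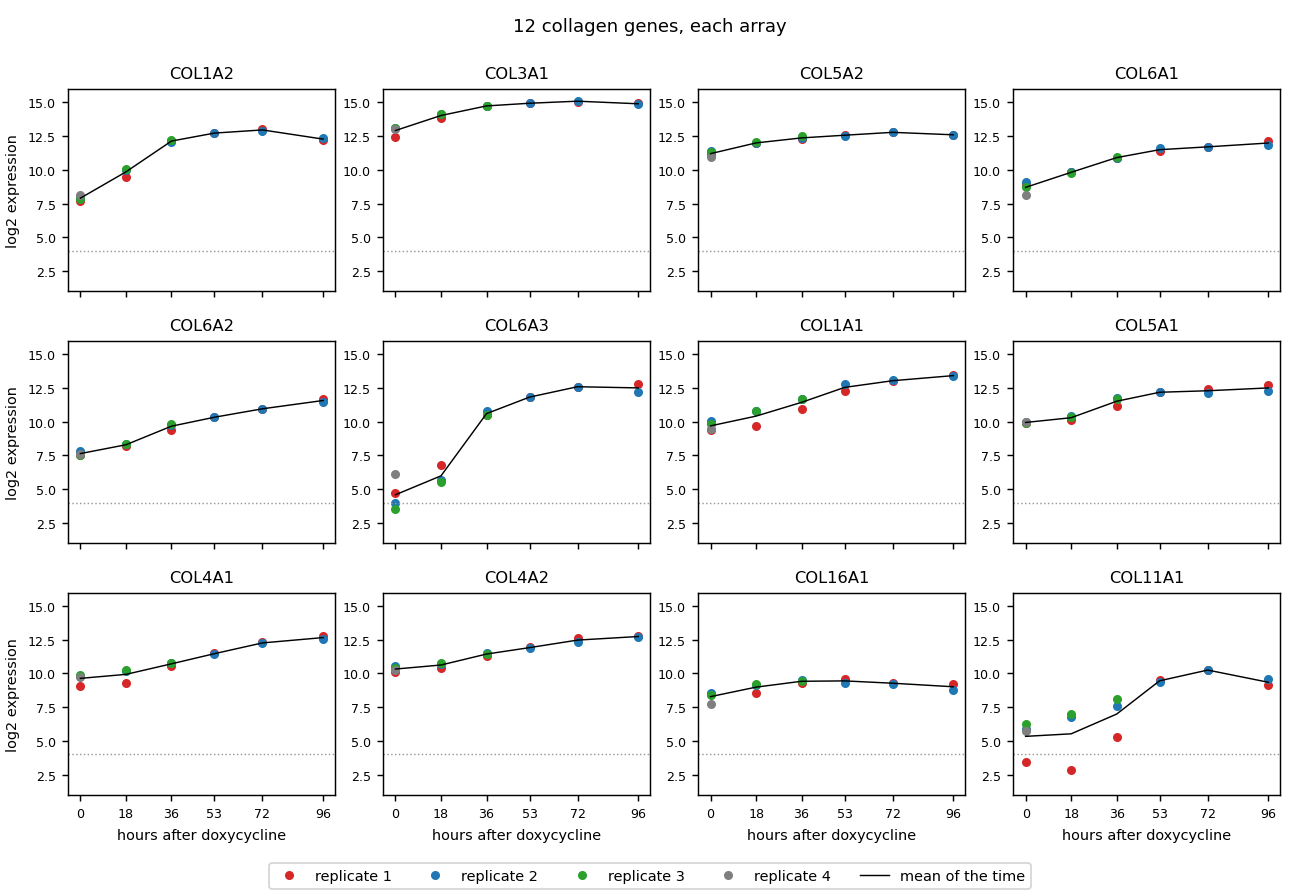
Log2 expression (vertical axis) of 12 collagen genes on each of 16 arrays against hours after doxycycline (points coloured by replicate number, black line through the means, dotted line at log2 4). COL6A3 lies at 12.58 and 12.60 at 72 h, COL3A1 at 15.05 and 15.14, and array 1 of COL11A1 lies apart at 0 h, 18 h and 36 h.

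Type IV collagen is the sheet of basement membranes, and its most widespread form joins 2 COL4A1 chains with 1 COL4A2 chain. Both genes were called higher from 36 h on. COL4A1 read 9.06, 9.85, 9.92 and 9.72 at 0 h, 9.31, 10.21 and 10.27 at 18 h and 10.54, 10.80 and 10.81 at 36 h. It then read 11.51 and 11.43 at 53 h, 12.31 and 12.23 at 72 h and 12.79 and 12.53 at 96 h. From 36 h no array overlapped those at 0 h. Against 0 h, COL4A1 differed on the log2 scale by 0.30 ± 0.23 (SE) at 18 h and 1.08 ± 0.23 at 36 h, then by 1.83 ± 0.26 at 53 h and 2.63 ± 0.26 at 72 h, and in the end by 3.03 ± 0.26 at 96 h. COL4A1 passed the test at 36 h, 53 h, 72 h and 96 h (limma adjusted p between 4.6e-07 and 0.00086) and not at 18 h (0.36). COL4A2 read 10.12, 10.54, 10.41 and 10.24 at 0 h, 10.39, 10.72 and 10.77 at 18 h and 11.32, 11.53 and 11.47 at 36 h. It then read 11.95 and 11.89 at 53 h, 12.60 and 12.36 at 72 h and 12.81 and 12.67 at 96 h. Here too arrays from 36 h on lay above those at 0 h, and those at 18 h overlapped them. Against 0 h, COL4A2 differed on the log2 scale by 0.30 ± 0.11 (SE) at 18 h and 1.11 ± 0.11 at 36 h, then by 1.59 ± 0.13 at 53 h and 2.15 ± 0.13 at 72 h, and in the end by 2.41 ± 0.13 at 96 h. COL4A2 passed the test at 36 h, 53 h, 72 h and 96 h (limma adjusted p between 4.5e-09 and 1.5e-06) and not at 18 h (0.062). At 18 h both genes were called without array 1 at 18 h (adjusted p = 0.043 for COL4A1 and 0.022 for COL4A2), and COL4A2 without array 2 at 0 h (0.031). Both were called with array weights (0.016 and 0.0036) and without array 1 at 0 h, 18 h and 36 h (0.0047 and 0.019). A second quantile normalization called COL4A2 as well (0.031). The within-array difference of COL4A2 and COL4A1 changed by 0.0031 at 18 h and 0.035 at 36 h, and by -0.24, -0.48 and -0.61 at 53 h, 72 h and 96 h.

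COL4A1 and COL4A2 are head to head, COL4A1 on the minus and COL4A2 on the plus strand, and 1 window holds both RefSeq starts; it is shown because both genes were called higher from 36 h on (GRCh38.p14, chr13:110307034-110307333, plus strand, capitals mark the 126 bases between the starts). 
COL4A2 and COL4A1: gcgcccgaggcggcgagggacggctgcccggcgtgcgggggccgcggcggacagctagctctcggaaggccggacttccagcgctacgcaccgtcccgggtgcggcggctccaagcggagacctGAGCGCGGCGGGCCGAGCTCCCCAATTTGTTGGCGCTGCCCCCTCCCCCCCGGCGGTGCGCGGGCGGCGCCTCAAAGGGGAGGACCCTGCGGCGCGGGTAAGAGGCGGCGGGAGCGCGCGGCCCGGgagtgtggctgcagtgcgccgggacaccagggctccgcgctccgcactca
The pairs COL4A4 with COL4A3 (418 bases apart) and COL4A6 with COL4A5 (379 or 1415 bases, by RefSeq window) lie the same way, but these 4 genes did not reach log2 4 on any array (highest 2.29, 2.71, 2.25 and 2.45).

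The changes of chains that share a molecule were set side by side. In 6 pairs of chains (COL1A2 with COL1A1, COL4A2 with COL4A1, COL5A2 and COL5A3 with COL5A1, COL6A2 and COL6A3 with COL6A1) the within-array difference was compared with 0 h at 5 times, 30 exact two-sided permutation tests over arrays chosen after the values were seen. The change of COL1A2 was above that of COL1A1 by 1.23 at 18 h, by 2.49 at 36 h and by 0.65 at 96 h, and the arrays did not overlap. That of COL6A3 was above that of COL6A1 by 3.81 at 36 h and 4.64 at 96 h, also with no overlap. None passed after Benjamini-Hochberg adjustment (lowest 0.17). With the two-sided exact p taken as the smaller tail times 2, the smallest p possible is 0.057 for 3 arrays against 4 and 0.13 for 2 against 4, so no pair could pass and only the sizes are given. COL6A3 was below log2 4 on 2 of 4 arrays at 0 h (arrays 2 and 3).

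**Figure D3:**
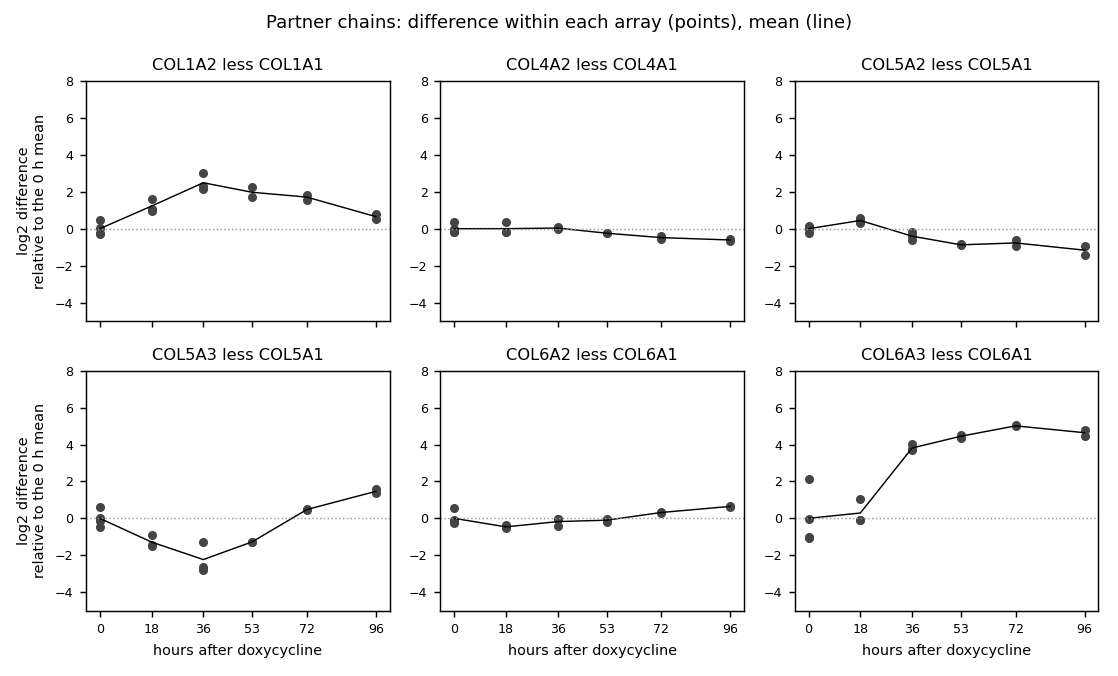
Difference of log2 values of 2 chains within each array, less its mean at 0 h (vertical axis), against hours after doxycycline; points are arrays and lines join means. COL6A3 less COL6A1 is at 3.81 at 36 h, COL5A3 less COL5A1 is at -2.23 at 36 h and at 1.46 at 96 h, and COL4A2 less COL4A1 has means between -0.61 and 0.035.

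Of collagens that sit on fibrils, COL16A1 rose early. COL16A1 read 8.46, 8.54, 8.42 and 7.72 at 0 h, 8.55, 9.18 and 9.22 at 18 h and 9.33, 9.51 and 9.43 at 36 h. It then read 9.62 and 9.28 at 53 h, 9.30 and 9.25 at 72 h and 9.22 and 8.80 at 96 h. Array 4 at 0 h was the lowest, and all arrays after doxycycline were above all at 0 h. Against 0 h, COL16A1 differed on the log2 scale by 0.70 ± 0.20 (SE) at 18 h and 1.14 ± 0.20 at 36 h, then by 1.17 ± 0.23 at 53 h and 1.00 ± 0.23 at 72 h, and in the end by 0.73 ± 0.23 at 96 h. COL16A1 passed the test at all 5 times (limma adjusted p between 0.00025 and 0.02). The call at 18 h was lost with a replicate block (0.52, adjusted p = 0.055) without array 2 or 3 at 18 h (0.078 and 0.084) and with arrays 2 and 3 averaged (0.11), and that at 96 h without array 1 (0.16). COL9A3, a chain of the cartilage type IX, was not seen above log2 4 before 72 h. COL9A3 read 3.20, 3.18, 3.19 and 3.19 at 0 h, 3.27, 3.18 and 3.19 at 18 h and 3.20, 3.14 and 3.16 at 36 h. It then read 3.92 and 3.23 at 53 h, 4.72 and 4.42 at 72 h and 4.45 and 4.51 at 96 h. Arrays at 72 h and 96 h stood above all at 0 h. Against 0 h, COL9A3 differed on the log2 scale by 0.03 ± 0.15 (SE) at 18 h and -0.02 ± 0.15 at 36 h, then by 0.38 ± 0.17 at 53 h and 1.38 ± 0.17 at 72 h, and in the end by 1.30 ± 0.17 at 96 h. COL9A3 passed the test at 72 h and 96 h (limma adjusted p between 5.5e-06 and 1.8e-05) and not at 18 h, 36 h and 53 h (0.055 to 0.92). It passed the filter by its arrays at 72 h and 96 h alone, so a rise was the only change it could show. Its calls at these times are no support beyond the values. Since no array at 0 h reached log2 4, the rise is given as at least 1.48-fold at 72 h and at least 1.40-fold at 96 h. At 53 h it was called without array 2 (0.0015), with both arrays below log2 4. COL21A1, another fibril-associated collagen, was the one tested gene lower at 96 h: it read 11.50 and 11.81 there and 12.29 to 12.64 at 0 h, a difference of -0.77 ± 0.12 (adjusted p = 0.00012), with 72 h at -0.27 (adjusted p = 0.060; 0.011 with a replicate block). The change at 72 h was also called without array 4 at 0 h (0.042), array 1 at 36 h (0.034) or either array at 96 h (0.047 each).

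The multiplexins COL15A1 and COL18A1 are basement membrane collagens whose ends release anti-angiogenic fragments. COL15A1 was above log2 4 at 96 h alone. COL15A1 read 2.26, 2.24, 2.26 and 2.26 at 0 h, 2.27, 2.25 and 2.27 at 18 h and 2.24, 2.23 and 2.19 at 36 h. It then read 2.23 and 2.23 at 53 h, 2.27 and 2.38 at 72 h and 6.39 and 6.15 at 96 h. Both arrays at 96 h stood apart, and the highest of the other arrays was 2.38. COL15A1 entered the test only through these 2 arrays, so a rise at 96 h was the only change it could show, and its call there (limma adjusted p = 1.9e-11) is no support beyond the values. Against log2 4 the rise is at least 4.81-fold, over 72 h as over 0 h. COL18A1 read 4.16, 4.46, 3.89 and 3.40 at 0 h, 3.80, 4.70 and 4.49 at 18 h and 4.16, 5.08 and 5.05 at 36 h. It then read 5.70 and 4.97 at 53 h, 6.11 and 6.11 at 72 h and 6.71 and 6.61 at 96 h. The arrays at 36 h overlapped those at 0 h, and from 53 h none did. Against 0 h, COL18A1 differed on the log2 scale by 0.35 ± 0.30 (SE) at 18 h and 0.79 ± 0.30 at 36 h, then by 1.36 ± 0.34 at 53 h and 2.13 ± 0.34 at 72 h, and in the end by 2.68 ± 0.34 at 96 h. COL18A1 passed the test at 36 h, 53 h, 72 h and 96 h (limma adjusted p between 1.6e-05 and 0.032) and not at 18 h (0.41). Its other probe set, below log2 4 on every array at 0 h, differed by 0.27 at 36 h and was not called (adjusted p = 0.22). The call at 36 h was lost with a replicate block (0.60, adjusted p = 0.10) and without array 3 or 4 at 0 h or array 2 or 3 at 36 h (0.063 to 0.13). It was lost too with arrays centred on their medians (0.063), with a second quantile normalization (0.060) and with arrays 2 and 3 averaged (0.12). The call at 53 h was lost without array 1 (0.063). 

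The promoter of COL15A1 is given for a gene called at 96 h alone (GRCh38.p14, chr9:98943657-98943956, plus strand, GGAA or TTCC in capitals, 3 in all). 
COL15A1: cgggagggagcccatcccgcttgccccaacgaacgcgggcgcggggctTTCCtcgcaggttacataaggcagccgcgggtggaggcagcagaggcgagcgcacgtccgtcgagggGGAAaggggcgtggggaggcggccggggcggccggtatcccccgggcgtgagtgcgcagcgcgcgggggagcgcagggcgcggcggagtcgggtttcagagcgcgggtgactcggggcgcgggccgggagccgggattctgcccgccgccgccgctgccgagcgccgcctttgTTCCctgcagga

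COL13A1, a collagen that spans the cell membrane, was called lower at 18 h and higher later by its brighter probe set. COL13A1 read 4.70, 5.30, 4.96 and 5.08 at 0 h, 3.80, 4.74 and 4.38 at 18 h and 5.58, 5.81 and 5.97 at 36 h. It then read 7.56 and 7.30 at 53 h, 7.80 and 7.50 at 72 h and 8.14 and 8.22 at 96 h. Array 2 at 18 h overlapped the arrays at 0 h, and from 36 h all were above. Against 0 h, COL13A1 differed on the log2 scale by -0.71 ± 0.20 (SE) at 18 h and 0.78 ± 0.20 at 36 h, then by 2.42 ± 0.23 at 53 h and 2.64 ± 0.23 at 72 h, and in the end by 3.17 ± 0.23 at 96 h. COL13A1 passed the test at all 5 times (limma adjusted p between 9.8e-08 and 0.019). The lower call at 18 h was lost without array 2 at 0 h (adjusted p = 0.053), without array 1 at 18 h (-0.45, 0.10) and with probe sets averaged (-0.24, 0.080). Its second tested probe set differed by -0.0022 at 18 h (adjusted p = 0.999) and by 0.38 at 96 h (0.025). COL7A1, which forms the anchoring fibrils below epithelia, rose late. COL7A1 read 3.84, 3.21, 3.25 and 3.24 at 0 h, 3.93, 3.20 and 3.29 at 18 h and 4.42, 3.44 and 3.23 at 36 h. It then read 4.25 and 3.69 at 53 h, 4.79 and 4.83 at 72 h and 6.63 and 5.08 at 96 h. Array 1 was higher than the others at 0 h, 18 h, 36 h, 53 h and 96 h, and at 72 h and 96 h all arrays were above all at 0 h. Against 0 h, COL7A1 differed on the log2 scale by 0.09 ± 0.36 (SE) at 18 h and 0.31 ± 0.36 at 36 h, then by 0.58 ± 0.41 at 53 h and 1.42 ± 0.41 at 72 h, and in the end by 2.47 ± 0.41 at 96 h. COL7A1 passed the test at 72 h and 96 h (limma adjusted p between 0.00015 and 0.0068) and not at 18 h, 36 h and 53 h (0.22 to 0.89). It passed the filter by arrays after doxycycline alone, so a rise was the only change from 0 h it could show. These calls are no support beyond the values. No array at 0 h reached log2 4, so the rise is at least 1.75-fold at 72 h and at least 3.63-fold at 96 h, and the bound at 96 h is 2.12-fold without array 1 at 96 h and 6.19-fold without array 2. COL8A1, of the short-chain network collagens, passed the filter by its 2 arrays at 96 h. COL8A1 read 2.79, 2.75, 2.77 and 2.77 at 0 h, 2.78, 2.75 and 2.78 at 18 h and 2.75, 2.73 and 2.71 at 36 h. It then read 2.77 and 2.72 at 53 h, 3.06 and 2.79 at 72 h and 4.19 and 4.17 at 96 h. Those at 96 h were the only ones at or above log2 4. As with COL15A1, a rise at 96 h was the only change it could show, and against log2 4 it is at least 1.13-fold. Without either array at 96 h, COL8A1 and COL15A1 fell under the filter.

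**Figure D4:**
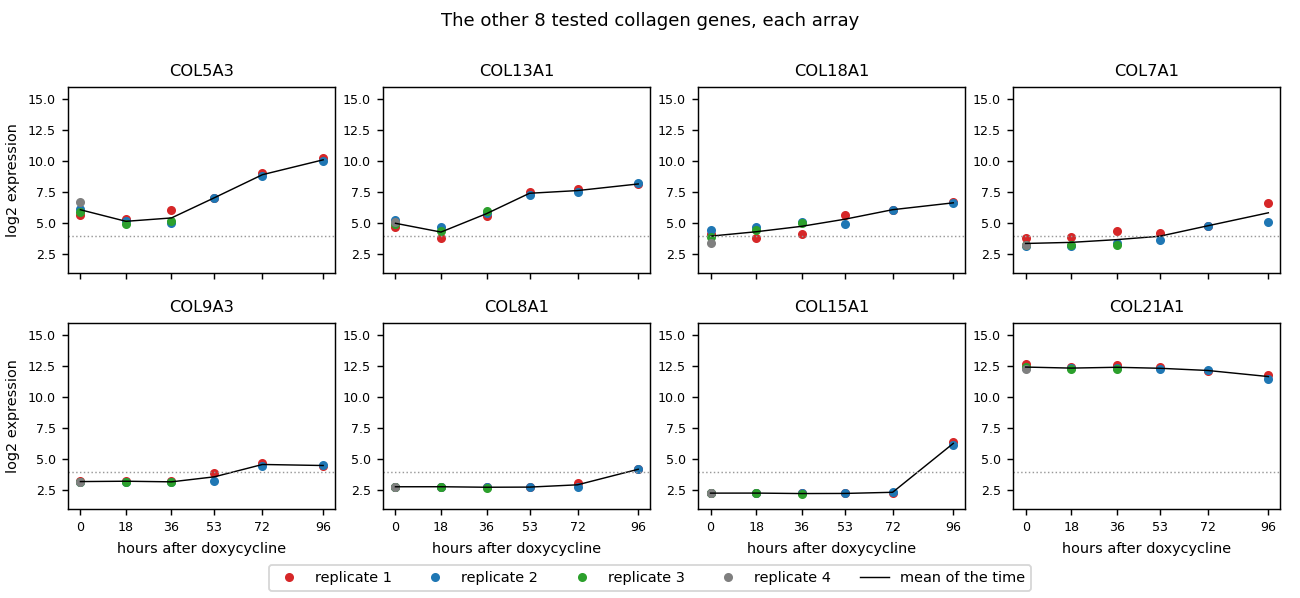
Log2 expression (vertical axis) of the other 8 tested collagen genes on each array against hours after doxycycline (points by replicate number, line through the means, dotted line at log2 4). COL5A3 and COL13A1 dip at 18 h, COL15A1 and COL8A1 lift at 96 h, and COL21A1 ends below its level at 0 h.

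The genes can be put in order by the earliest time from which all later comparisons with 0 h were called higher. It was 18 h for 7 genes (COL1A2, COL3A1, COL5A2, COL6A1, COL6A2, COL6A3, COL16A1) and 36 h for 6 (COL1A1, COL4A1, COL4A2, COL5A1, COL13A1, COL18A1). It was 53 h for 2 (COL5A3, COL11A1), 72 h for 2 (COL7A1, COL9A3) and 96 h for 2 (COL8A1, COL15A1). That time is one of calls and not of onset. At 18 h COL16A1 was called with 0.70 and COL1A1 was not with 0.72. All COL5A1 arrays at 18 h lay above those at 0 h without a call. COL7A1, COL9A3, COL8A1 and COL15A1 were below log2 4 on all arrays at 0 h, so a rise below that level would not be measured. With a replicate block 4 genes had another first time: COL1A1 at 18 h, COL11A1 and COL16A1 at 36 h, and COL18A1 at 53 h. By the other tested probe set the first time was 36 h for COL6A2 and COL11A1, 53 h for COL18A1 and 72 h for COL13A1. At 0 h those of COL11A1, COL18A1 and COL13A1 were below log2 4 on every array. The place of COL6A3 at 18 h rests on a call that the settings named above did not keep, although the replicate block did. The highest mean fell at 96 h for 12 genes, at 72 h for 6, at 53 h for COL16A1 and at 0 h for COL21A1. Between neighbouring times 11 genes were higher and 0 lower at 36 h against 18 h (all tested genes 21.9% and 22.9%). The counts were 7 and 0 at 53 h against 36 h (5.37% and 7.23%) and 4 and 0 at 72 h against 53 h (5.61% and 11%). They were 4 and 2 at 96 h against 72 h (17.1% and 10.1%). In that last step 2 of the 4 higher genes were COL8A1 and COL15A1, which passed the filter by their arrays at 96 h alone. The 16 genes at log2 4 or more on some array at 0 h gave 2 higher and 2 lower there. For 72 h against 53 h these 16 gave 3 and 0. With a replicate block COL4A1, COL6A1, COL6A3 and COL11A1 were called too for 53 h against 36 h (adjusted p = 0.036, 0.012, 0.032 and 0.024) and COL7A1 for 96 h against 72 h (0.024). The count for 53 h against 36 h was 11 with the block and 4 with arrays 2 and 3 averaged. Over all tested genes it was 1088 and 388, beside 920 in the main fit. Same-numbered arrays deviated together little between 36 h and 53 h (r of 0.073 and 0.077) and between 72 h and 96 h (0.158). The block therefore has little ground in these steps.

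The 12 genes below the filter were COL2A1, COL4A3, COL4A4, COL4A5, COL4A6, COL8A2, COL9A1, COL9A2, COL10A1, COL11A2, COL14A1 and COL19A1, with a highest value of 3.33 on any array (COL10A1). They include the network-forming COL4A3 to COL4A6 of specialised basement membranes and the cartilage collagens COL2A1 and COL10A1. Dim values of this kind give no level, so a low probe set is not shown to mean an absent transcript.

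Genes that make, process or bind collagen were counted too; over all tested genes 14.8%, 33.2%, 31.8%, 29.3% and 25.1% were higher at 18 h to 96 h and 14.7%, 32.1%, 34.5%, 39.2% and 35.7% lower. Shares of lists this short are counts of few genes and are not tested here. Of enzymes and chaperones that fold and modify the chains, 14 were tested, with 4 higher beside 1 lower at 18 h, 9 beside 1 at 36 h, 11 and 0 at 53 h, 13 and 0 at 72 h and 12 and 0 at 96 h. At 96 h the lysyl hydroxylases PLOD3 and PLOD1 were higher by 2.00 ± 0.10 and 1.48 ± 0.12. P3H2, a prolyl 3-hydroxylase that did not reach log2 4 at 0 h, was at least 15.6-fold higher. The median log2 change of the 14 genes was 1.39 at 96 h. Of procollagen proteases and cross-linking enzymes 7 were tested, with 2 higher beside 0 lower at 18 h, 5 beside 1 at 36 h, 6 and 1 at 53 h, 5 and 0 at 72 h and 6 and 0 at 96 h: LOXL2, an oxidase that cross-links chains, by 4.94 ± 0.27, PCOLCE, an enhancer of procollagen cleavage, by 1.89 ± 0.12, and BMP1, which cleaves the C-terminal propeptide, by 3.13 ± 0.21. Of 5 collagen receptors 2, 3, 4, 5 and 4 were higher at 18 h, 36 h, 53 h, 72 h and 96 h, and 0 lower, among them MRC2 (2.65 ± 0.20) and, neither of them at log2 4 on any array at 0 h, ITGA2 (at least 2.27-fold) and ITGA1 (at least 3.68-fold). The list of collagen breakdown holds 5 tested proteases and 3 TIMP genes, whose products inhibit such proteases. Of the proteases 1, 3, 3, 3 and 3 were higher at these times and 0, 1, 1, 1 and 0 lower, the lower one being MMP1. Those higher at 96 h were FAP (5.33 ± 0.26), MMP2 (3.10 ± 0.15) and MMP3, which did not reach log2 4 at 0 h (at least 2.20-fold). Of the inhibitors 0, 2, 2, 3 and 2 were higher and 0 lower, and those at 96 h were TIMP1 (1.66 ± 0.29) and TIMP2 (1.22 ± 0.17). MMP1, TIMP1 and TIMP2 were named after their values were seen. Of 12 regulators of collagen transcription 5, 8, 10, 11 and 7 were higher and 0 lower, among them TGFBR2, a receptor for TGF-beta (2.54 ± 0.14 at 96 h), SOX9, a driver of cartilage genes (2.67 ± 0.18), and SMAD3, a mediator of TGF-beta signals (2.67 ± 0.23). At 96 h limma adjusted p was 0.087, 0.00026 and 3.9e-05 for MMP1, TIMP1 and TIMP2. For the other named genes at log2 4 or more on some array at 0 h it was 2.3e-09 to 5.0e-07. At 96 h 0 genes of the 5 lists were called lower. P3H2, ITGA1, ITGA2, MMP3, SOX5 and ADAMTS3 were below log2 4 on all 4 arrays at 0 h. They passed the filter by arrays after doxycycline alone, so a rise was the only change from 0 h they could show. Their calls are no support beyond the values. ADAMTS3, counted as higher at 96 h, read 2.60 to 3.40 there, below log2 4 as at 0 h. Values this dim give no level. FAP was below log2 4 on 3 of 4 arrays at 0 h, so the size of its change is uncertain.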

How the data were processed

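Per the submitters' processing notes, the authors used GCRMA to make the deposited log2 values. Its version and settings, and joint or separate processing of arrays, are not given in sources used here. The log2 scale was inferred from the range of values, 0.388 to 15.2. GCRMA compresses dim values. A single gene symbol was annotated for 19070 of the 22277 probe sets, and 0 columns belonged to other samples. The collagen genes and the lists were chosen with earlier results of these data known.

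Each gene was represented by its brightest probe set on average, and 2 arrays at log2 4 or above were required. limma 3.58.1 in R 4.3.3 (files read by the data.table package, version 1.17.8) fitted 1 mean for each time over 16 arrays, which leaves 10 residual degrees of freedom, with a trended eBayes prior. Benjamini-Hochberg adjustment ran over the 7304 tested genes of a comparison, and adjusted p under 0.05 counted as called. Times were set against 0 h and against the time before. For chain pairs the exact two-sided p of scipy 1.17.1 is the smaller tail times 2. Folds are lower bounds, measured from log2 4 and not from the dim mean, where no probe set of the collagen gene, or the brightest one of another gene, reached log2 4 on any array at 0 h. Members past the threshold with a log2 change of at least 1 at some time are given in full, and other lists by the 3 genes with the smallest adjusted p at 96 h. Promoter windows come from RefSeq (GRCh38.p14). Python 3.11.15 with matplotlib 3.10.9 drew the figures. The number of arrays limits the precision.

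Numbers 1 to 3 in the labels were taken to pair arrays at 0 h, 18 h and 36 h, because same-numbered arrays deviated together from their group means over genes: r was 0.632, 0.545 and 0.508 between 0 h and 18 h, 0.304, 0.214 and 0.286 between 0 h and 36 h, and 0.366, 0.244 and 0.331 between 18 h and 36 h. These values do not separate number 2 from number 3. The block also joined numbers 1 and 2 at 53 h, 72 h and 96 h to those at 0 h, 18 h and 36 h. There r of same-numbered arrays was -0.207 to 0.109. Block values that involve 53 h, 72 h or 96 h thus rest on a pairing that these r do not bear out. The model has no block, and values with one are given where it changed a call and for COL6A3 at 18 h. Alternatives were other filters, probe set choices, scalings and priors, array weights, a block and leaving out each array.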

Additional observations from a re-analysis of the deposited data

Results flagged for a closer look

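A gene was set apart at 0 h by the gap of 1 of the 4 arrays from the rest against the range of the group. Were the arrays independent, chance would set about 1 gene in 20 apart by this test. Arrays 2 and 3 at 0 h were nearly alike, so that rate may not hold here. The share over all tested genes is not given, so the count is not read as an excess. Of the tested collagen genes 3 were set apart. COL16A1 read 7.72 on array 4, while the other 3 read 8.42 to 8.54. COL7A1 read 3.84 on array 1, while the others read 3.21 to 3.25, all below log2 4. COL15A1 read 2.24 on array 2, while the others read 2.26, which is far below log2 4 and gives no level.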

How the results depend on the processing

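The number of collagen genes called at 18 h, 36 h, 53 h, 72 h and 96 h against 0 h (9, 14, 15, 17 and 20 of 20) stayed within 1.5 times under all settings but the removal of probe sets ending in _x_at and _s_at, with which 14 genes were tested and 4, 8, 10, 11 and 13 called, the count at 53 h still within 1.5 times. That setting gave 6 for 36 h against 18 h and 3 for 53 h against 36 h, with fewer genes tested. Over all 4431 genes tested in it, the counts for these steps were 1910 and 563. Leaving out 1 array gave 7 to 11 at 18 h, 12 to 15 at 36 h, 14 to 16 at 53 h, 17 to 18 at 72 h and 17 to 20 at 96 h. For the steps it gave 9 to 11 for 36 h against 18 h, 3 to 8 for 53 h against 36 h, 2 to 5 for 72 h against 53 h and 1 to 6 for 96 h against 72 h. The 53 h against 36 h count was 7, and 11 with the replicate block and 4 with arrays 2 and 3 averaged. All tested genes gave 920, 1088 and 388. The 72 h against 53 h count was 4, and 7 with probe sets averaged (all tested genes 1215 and 1239). The 96 h against 72 h count was 6, and 11 without array 1 at 0 h, 18 h and 36 h. Over all tested genes these counts were 1988 and 2698. The cause was not tested.

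The replicate block gave 9, 13, 15, 18 and 20 collagen genes at 18 h to 96 h. Over all tested genes it gave 1994, 4766, 4756, 4940 and 4359. No setting turned the sign of a called change; over all single genes, comparisons and settings 111 calls were lost and 77 gained. Planned settings were written with earlier results known, and the one without array 1 was added after the data were seen.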
